A study of Arabidopsis thaliana with 8 samples.

Results

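Expansins are cell wall proteins that let the wall yield and stretch without cutting its polymers, and they act best when the wall is acidic. Proton pumps of the plasma membrane (AHA proteins) acidify the wall, clade D protein phosphatases hold the pumps back, and SAUR proteins of the SAUR19 group block those phosphatases. In Arabidopsis the family is divided into alpha-expansins (EXPA), beta-expansins (EXPB) and the expansin-like groups EXLA and EXLB, whose biochemical activity is less clear. EXPA7 and EXPA18 are known for their expression in root hair cells.

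The family was followed here by 35 loci, chosen by their locus names from 25665 loci that the array names. They comprise 25 alpha-expansins, 6 beta-expansins and 4 expansin-like genes. Exactly 1 probe named each of 34 members, and no probe named EXPB6. Of the 35, 27 members had enough signal to be tested: 20 alpha, 3 beta and all 4 expansin-like. All other members with a probe, namely EXPA21, EXPA22, EXPA23, EXPA25, EXPA26, EXPB2 and EXPB4, were not well above background on all arrays of any group. EXPA23 came closest, with 1 mutant and 1 wild-type seedling array above background.

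The study set paps1-1, a mutant of the nuclear poly(A) polymerase PAPS1 in the Ler ecotype of Arabidopsis thaliana, against wild type of the same ecotype on 8 Agilent 2-colour arrays. On 4 arrays the RNA came from inflorescences without open flowers, taken from soil-grown plants of 30 days in both genotypes. The other 4 held whole seedlings with roots from MS plates, at 11 days for the mutant and 9 days for wild type, so that age and genotype cannot be told apart in seedlings. All plants were kept at 21 °C in long days. The labels give no other allele or treatment. The design text counts 4 biological replicates per genotype and tissue. Its title ties the polymerases to organ growth, and the comparison of expansins addresses wall loosening genes in tissues of the mutant.

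Every ratio below is log2 of mutant over wild type signal on the same array, relative to all other transcripts on it. Fitted values carry moderated standard errors (SE, n = 4 arrays per tissue), with the spread pooled over all 8 arrays. A member therefore has the same SE in both tissues, which is narrow for the tissue that varied more. The mutant was in Cy5 on replicates 1 and 2 and in Cy3 on replicates 3 and 4. A member was called changed at a limma adjusted p under 0.05 over 21446 loci. This rule called 53.7% of all loci in inflorescences and 57.9% in seedlings, so calls of at least 1.5-fold are also given, which came to 7.87% and 10.2%. A member counts as measured in a tissue if all 4 mutant channels, or all 4 wild-type channels, were well above background there. Arrays of the same tissue gave ratios whose correlation across loci lay between 0.789 and 0.905 (inflorescences) and between 0.702 and 0.895 (seedlings). As a check of the tissues, all 10 tapetum and all 9 pollen marker genes were measured in inflorescences, against 0 and 1 in seedlings, and 24 of 25 root hair markers were measured in seedlings, against 9 in inflorescences. Whether probes tell closely related expansins apart was not tested, and the labelling primer, which bears on what a signal means in a polymerase mutant, is not given in the sources used here.

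Some expansins were measured in a single tissue. Measured in seedlings and not in inflorescences were EXPA2, EXPA7, EXPA12, EXPA17 and EXPA18, with EXPA12 above background in the mutant channels only. EXPA24 and EXPB5 were the reverse, measured in inflorescences and not in seedlings. Of the 27 tested expansins, 22 were measured in inflorescences, 25 in seedlings and 20 in both. Of all 21446 tested loci these were 20461, 19435 and 18450. The wild-type EXPB5 signal was at least 14.1-fold higher in inflorescences, and that of EXPA24 at least 2.88-fold. The root hair gene EXPA7 was at least 5.76-fold higher in seedlings and EXPA2, an alpha-expansin linked to seed germination, at least 4.90-fold. These bounds set the bright tissue against the higher of the dim probe and the lowest signal that counted as above background.

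For 20 members the wild-type signal was above background on all 4 arrays of both tissues. Of these, 10 were higher in seedlings and 7 higher in inflorescences with no overlap of the arrays, and EXPA10, EXPA13 and EXPB3 overlapped. Over all loci 74.6% did not overlap in this way, 35.6% being higher in seedlings and 39% in inflorescences. Tissue, slide, plant age and growth on soil or MS plates coincide here, so these levels are a description. EXLB1 had the widest gap of the 20, with a log2 signal of 6.39 ± 0.04 (SD, n = 4) in inflorescences and 9.29 ± 0.13 in seedlings. EXPA8 stood at 11.8 ± 0.08 and 13.1 ± 0.08, and EXPA1 at 12.8 ± 0.07 and 14.0 ± 0.06. In the other direction, EXPA5, an alpha-expansin linked to growth under brassinosteroids, stood at 12.8 ± 0.18 in inflorescences and 11.8 ± 0.12 in seedlings.

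**Figure D1:**
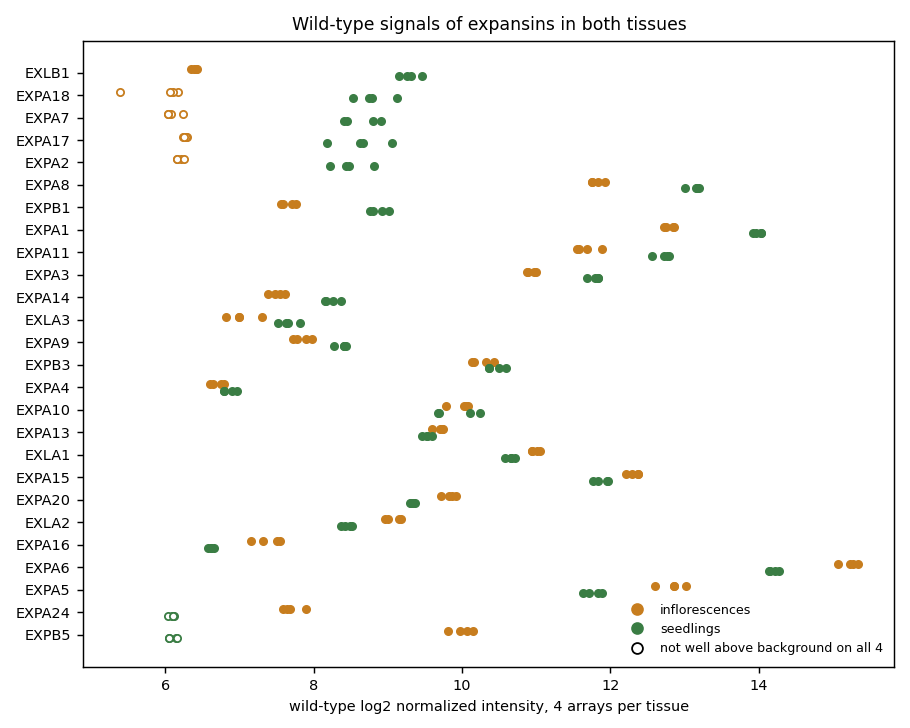
Wild-type log2 normalized intensity of expansins on the 4 arrays of each tissue, for members above background on all 4 wild-type arrays of at least 1 tissue. Filled points were above background on all 4 arrays and open points were not; EXLB1 and the root hair genes EXPA7 and EXPA18 lie far apart between tissues, while EXPA10, EXPA13 and EXPB3 overlap. Signals of different probes are not comparable.

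In mutant inflorescences, more expansins rose than fell. Of the 22 members measured there, 10 rose, 5 fell and 7 did not pass, with a median log2 ratio of 0.18. This is 68.2% called, beside 55.9% of all loci measured in that tissue, of which 27.1% were higher and 28.7% lower. Those that changed at least 1.5-fold were EXPA1, EXPA9, EXPA10, EXPA14 and EXPB1, all of them higher, which is 22.7% of the measured members beside 8.24% of measured loci. Of all tested loci 4.4% were higher and 3.47% lower by this rule.

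EXPA10 (AT1G26770), which promotes growth of leaves and flower stalks, had the highest ratio in inflorescences. Its log2 ratio was 1.18, 1.28, 1.07 and 1.48 on replicates 1 to 4, a fitted 1.25 ± 0.09 (SE), or 2.38-fold (adjusted p = 2.94e-06). The wild-type signals lay between 9.78 and 10.08 and the mutant signals between 11.13 and 11.30 on the log2 scale, without overlap. The beta-expansin EXPB1 (AT2G20750) read 0.91, 1.19, 0.73 and 1.28, a fitted 1.03 ± 0.10, or 2.04-fold (adjusted p = 2.54e-05). All 4 arrays were above 0.7 for both genes.

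EXPA14 (AT5G56320), which together with EXPA17 is known from lateral root formation, also rose in inflorescences. Its ratios were 1.04, 1.03, 0.92 and 0.65, with a fit of 0.91 ± 0.07 and an adjusted p of 5.34e-06. EXPA1 (AT1G69530), an alpha-expansin known from guard cells and growing shoots, read 0.68, 0.83, 0.92 and 0.86, with a fit of 0.82 ± 0.05 and an adjusted p of 1.92e-06. EXPA9 (AT5G02260) read 0.91, 0.80, 0.53 and 0.83, a fitted 0.77 ± 0.08 with an adjusted p of 3.37e-05. In all 3 genes the mutant signals on every array exceeded every wild-type signal. These genes and EXPA10 were named for a call of at least 1.5-fold. The share of all loci separated in this way was not counted.

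Smaller rises were called in inflorescences for EXPA5 at 0.33 ± 0.09, EXPA15 at 0.45 ± 0.09, EXPA24 at 0.56 ± 0.07, EXPB3 at 0.47 ± 0.08 and EXLA2 at 0.49 ± 0.06. EXPA24 (AT5G39310) read 0.36, 0.59, 0.89 and 0.39, or 1.47-fold, just under the size rule. Leaving out replicate 3 or replicate 4 of inflorescences ended the call of EXPA5 (0.30, adjusted p = 0.0608, and 0.22, adjusted p = 0.0850). EXLA2 is an expansin-like gene whose loss is known to limit infection by Botrytis. The 5 members that fell all did so by less than 1.5-fold. EXPA20 fell by 0.42 ± 0.05 and EXPA13 by 0.34 ± 0.04, and both were negative on every array. EXPA3 and EXPA6 each fell by 0.20, EXPA3 losing its call without inflorescence replicate 1 (−0.14, adjusted p = 0.0866) and EXPA6 with median centring (−0.09, adjusted p = 0.260). EXLA3 fell by 0.25 ± 0.07, with ratios of −0.13, 0.11, −0.40 and −0.59 that crossed 0, and lost its call without replicate 1 (−0.24, adjusted p = 0.0521) or replicate 4 (−0.18, adjusted p = 0.0802). EXPA4, EXPA8, EXPA11, EXPA16, EXPB5, EXLA1 and EXLB1 did not pass, with ratios between −0.03 and 0.18. EXLB1 was called higher under 7 alternatives, at 0.18 to 0.77, and EXLA1 under 2.

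Markers of male tissues were read on the same inflorescence arrays, since anthers are part of the tissue. Of 10 tapetum markers 7 rose and 1 fell, with a median of 0.29. Of 9 pollen markers 3 rose and 2 fell, with a median of −0.05. Called were 80% of the tapetum and 55.6% of the pollen markers, beside 55.9% of all loci measured in inflorescences. The summed tapetum signal lay between 15.1 and 15.6 in wild type and between 15.4 and 15.7 in the mutant on the log2 scale. Their part in the expansin ratios was not tested. In bulk tissue, fewer cells of a type and less RNA per cell cannot be told apart.

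**Figure D2:**
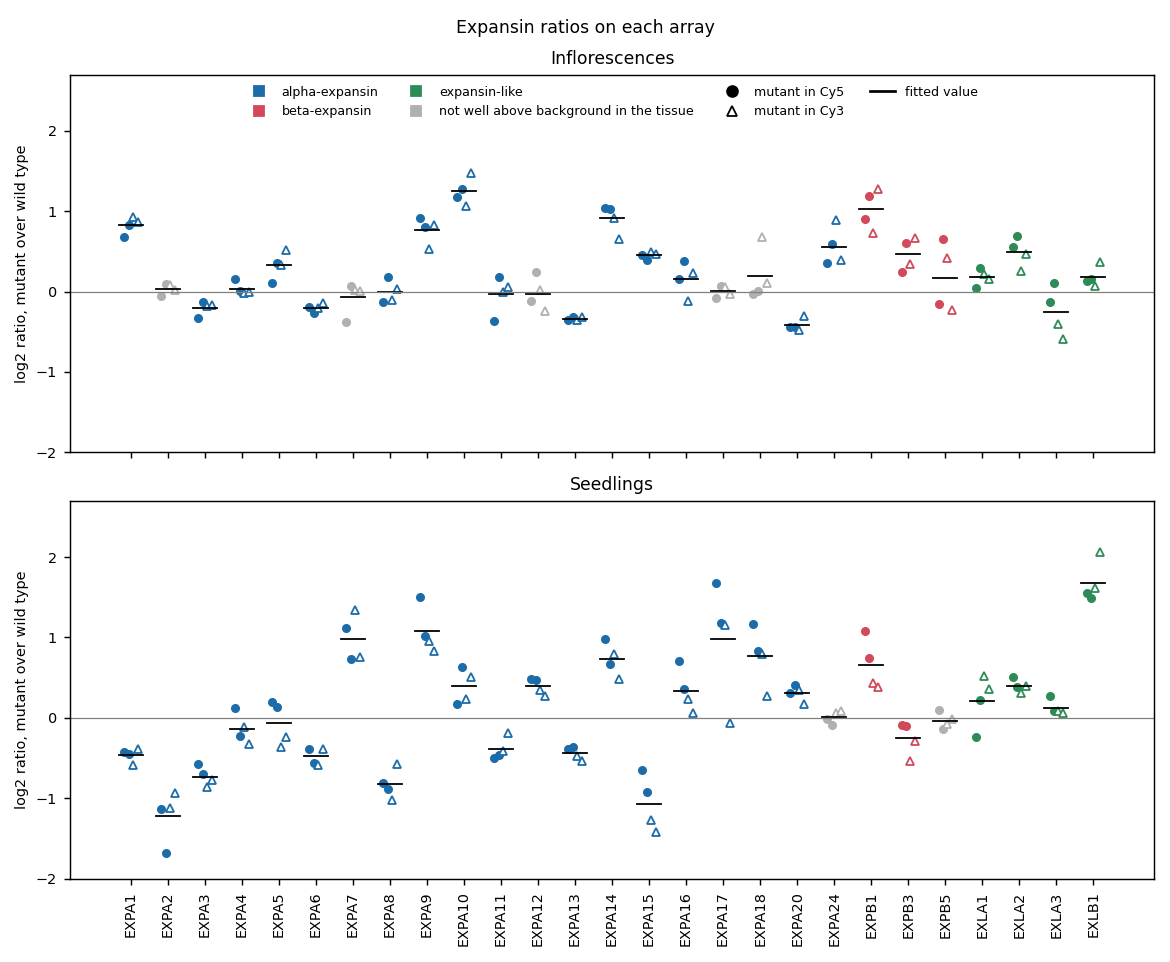
Log2 ratio of mutant over wild type on each array for the 27 tested expansins, inflorescences above and seedlings below; filled circles have the mutant in Cy5, open triangles in Cy3, and bars are fitted values. Grey marks members not well above background in that tissue. EXPA10 and EXPB1 are highest in inflorescences, while in seedlings EXLB1 lies above 1.4 on every array and EXPA2 and EXPA15 lie below −0.6.

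In mutant seedlings, expansins moved in both directions. Of the 25 members measured, 12 rose, 9 fell and 4 did not pass, with a median log2 ratio of 0.21. This is 84% called, beside 63.2% of all loci measured there, of which 31.2% were higher and 32% lower. Without EXPA12, which passed the filter through its mutant channels alone, 83.3% of 24 members were called. At least 1.5-fold higher were EXPA7, EXPA9, EXPA14, EXPA17, EXPA18, EXPB1 and EXLB1, and at least 1.5-fold lower EXPA2, EXPA3, EXPA8 and EXPA15. Those 11 are 44% of the measured members, beside 11.3% of measured loci. Of all tested loci 6.12% were higher and 4.08% lower by this rule. With median centring in place of loess, 8 of the tested members rose and 9 fell, and 3 rose and 5 fell at least 1.5-fold.

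The root hair members both rose in seedlings. EXPA7 (AT1G12560) had log2 signals of 8.45, 8.91, 8.41 and 8.80 in wild type and 9.57, 9.64, 9.75 and 9.55 in the mutant. The genotypes did not overlap, and the ratios were 1.12, 0.73, 1.34 and 0.75 (SD 0.30). How many of all loci show no such overlap was not counted. The fit gave 0.99 ± 0.10, or 1.98-fold, with an adjusted p of 2.55e-05. EXPA18 (AT1G62980) had signals of 8.53, 8.79, 8.74 and 9.12 in wild type and 9.70, 9.62, 9.53 and 9.39 in the mutant. These too did not overlap, although the ratios of 1.17, 0.83, 0.79 and 0.27 placed replicate 4 well below the rest. Its ratios also split by dye order, with a mean of 1.00 for the mutant in Cy5 and 0.53 for the mutant in Cy3. Such a split without overlap was found in 15 of the 25 expansins measured in seedlings, beside 50% of all loci measured there. The fit gave 0.77 ± 0.14, or 1.70-fold, with an adjusted p of 0.00110. The EXPA18 call ended with normexp offset 0 (0.87, adjusted p = 0.607) and with median centring (0.58, adjusted p = 0.224). With offset 0 the seedling ratio was not smaller, but the SE pooled over both tissues was 1.37 in place of 0.14. The inflorescence ratio, from arrays where EXPA18 was not measured, then read 2.47.

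In inflorescences neither root hair gene was measured. No EXPA7 channel was above background on any of the 4 arrays, and EXPA18 was above it in 1 mutant and 1 wild-type channel. No change can be read there, and a difference between tissues in their mutant response was therefore not drawn from these probes.

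EXPA17 (AT4G01630), the lateral root partner of EXPA14, differed most between its seedling arrays. Its ratios were 1.67, 1.17, 1.15 and −0.07, so that replicate 4 showed no rise while the other 3 were above 1.1. The SD of these ratios was 0.74, against 0.07 in inflorescences, where EXPA17 was not measured, so the pooled SE is narrow for seedlings. The fit over all 4 was 0.98 ± 0.18 (adjusted p = 0.00115) and 1.32 without seedling replicate 4. With median centring the call ended (0.80, adjusted p = 0.0865). EXPA14 read 0.98, 0.66, 0.79 and 0.48, a fitted 0.73 ± 0.07 with an adjusted p of 1.66e-05. EXPA9 read 1.503, 1.02, 0.96 and 0.84, a fitted 1.08 ± 0.08, or 2.11-fold, with an adjusted p of 3.38e-06. Among the members that rose, replicate 4 gave the lowest of the 4 ratios in EXPA9, EXPA12, EXPA14, EXPA16, EXPA17, EXPA18, EXPA20 and EXPB1. It did not in EXPA7, EXPA10, EXLA2 and EXLB1, and in EXLB1 it gave the highest, at 2.07. How often this holds over all loci was not counted.

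**Figure D3:**
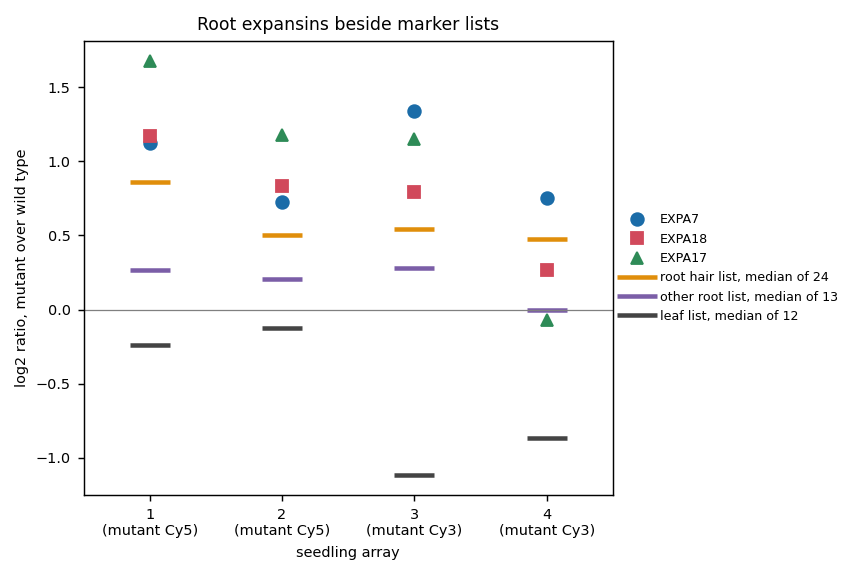
Log2 ratio of mutant over wild type of EXPA7, EXPA18 and EXPA17 on the 4 seedling arrays, with the median of 24 root hair, 13 other root and 12 leaf marker genes on the same array as bars. EXPA7 lies above the root hair median on every array; EXPA18 and EXPA17 fall below it on replicate 4, at 0.27 and −0.07.

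Markers of roots, leaves and seeds moved on the same seedling arrays. Called were 79.2% of root hair, 61.5% of other root, 83.3% of leaf and 85.7% of seed markers. The share over all loci measured in seedlings was 63.2%. Of 24 root hair markers 19 rose and none fell, with a median of 0.59 and medians of 0.86, 0.50, 0.54 and 0.48 on replicates 1 to 4. They ranged from LRX1 at 0.06, a wall protein gene, to RHS13 at 1.22, and the root hair regulator RSL4 rose by 0.67. The summed signal of this list lay between 13.4 and 13.7 in wild type and between 14.2 and 14.3 in the mutant on the log2 scale. The regulators RHD6, RSL1, RSL2 and RSL4 were above background on all 8 seedling channels and on no inflorescence channel. Of these, RHD6 also rose in seedlings, by 0.51, while RSL1 (0.14) and RSL2 (0.09) were not called. LRL3, on the same list, was above background in inflorescences on 2 mutant and 4 wild-type arrays.

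Other root markers, from meristem, endodermis and transport, had 6 of 13 higher and 2 lower, with a median of 0.12. The list ranged from −0.25 for the phosphate exporter PHO1 to 1.20 for CASP1 of the endodermal Casparian strip. Its summed signal overlapped between genotypes, at 16.1 to 16.4 in both. That sum was higher in the mutant on replicates 1 and 2 and lower on replicates 3 and 4, where the mutant was in Cy3. Of 12 leaf markers 9 fell and 1 rose, with a median of −0.46 and a summed signal of 20.4 to 21.0 in wild type and 20.0 to 20.5 in the mutant. That sum overlapped between genotypes and was lower in the mutant only on replicates 3 and 4, where the mutant was in Cy3. Of 7 seed markers 6 fell, with a median of −1.40 and a summed signal of 12.6 to 13.2 against 11.3 to 11.8. The part of these shifts, and of the 2 days in age, in the expansin ratios was not tested.

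EXLB1 (AT4G17030), the single member of its expansin-like group, had the highest expansin ratio in seedlings. Its wild-type log2 signals were 9.45, 9.26, 9.32 and 9.15 and its mutant signals 11.00, 10.75, 10.93 and 11.22. The groups lay more than 1 log2 unit apart. The ratios of 1.55, 1.49, 1.62 and 2.07 gave a fit of 1.68 ± 0.08, or 3.20-fold, with an adjusted p of 2.75e-07. EXPB1 was also higher, with ratios of 1.08, 0.74, 0.43 and 0.38 and a fit of 0.66 ± 0.10 (adjusted p = 0.000362). Both of its arrays with the mutant in Cy5 lay above both with the mutant in Cy3.

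Smaller rises in seedlings were those of EXPA10 at 0.39 ± 0.09, EXPA16 at 0.34 ± 0.08, EXPA20 at 0.31 ± 0.05, EXLA2 at 0.40 ± 0.06 and EXPA12. Median centring ended the calls of EXPA10 (0.22, adjusted p = 0.0706) and EXPA20 (0.13, adjusted p = 0.149). EXPA16 was 2 or more times larger on the log2 scale without the offset of 50, with the deposited table and with the software's log ratio, at 0.67 to 1.05. EXPA12 was above background on all 4 mutant arrays and on no wild-type array, and was at least 1.31-fold higher in the mutant. It passed the filter through the mutant channels alone, where it is the brighter, so its call supports nothing. Without it, 11 of 24 members rose and 9 fell in seedlings.

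Among members lower in seedlings, EXPA2 (AT5G05290) read −1.13, −1.68, −1.12 and −0.94. The SD was 0.32 here and 0.07 in inflorescences, where EXPA2 was not measured. Its fit in seedlings fell by 1.22 ± 0.09 (adjusted p = 2.65e-06), a 2.32-fold drop. With the software's log ratio it read −2.13, with normexp offset 0 −1.80 and with the deposited table −1.76. The seed markers, which moved the same way, had medians of −2.04, −1.43, −0.52 and −2.07 on the same arrays. Whether the 2 falls are tied was not tested. EXPA15 (AT2G03090) read −0.65, −0.92, −1.27 and −1.43, a fitted −1.07 ± 0.09, or 2.09-fold lower (adjusted p = 5.91e-06). Its fall was steeper on both arrays with the mutant in Cy3, as was that of the leaf list, whose medians were −0.24, −0.12, −1.11 and −0.86.

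EXPA8 and EXPA3 were lower on every seedling array. EXPA8 (AT2G40610) read −0.81, −0.89, −1.03 and −0.58, a fitted −0.83 ± 0.08 with an adjusted p of 1.16e-05. EXPA3 (AT2G37640) read −0.58, −0.70, −0.86 and −0.77, a fitted −0.73 ± 0.06 with an adjusted p of 3.51e-06. Falls below the size rule were those of EXPA1 (−0.46 ± 0.05), EXPA6 (−0.48 ± 0.05), EXPA11 (−0.39 ± 0.08), EXPA13 (−0.44 ± 0.04) and EXPB3 (−0.25 ± 0.08). The EXPB3 call ended without seedling replicate 3 (−0.16, adjusted p = 0.166) or 4 (−0.26, adjusted p = 0.0643). EXPA4, EXPA5, EXLA1 and EXLA3 did not pass, with ratios between −0.14 and 0.21. EXPA4 was called lower under 5 alternatives, at −0.73 to −0.16, and EXLA1 higher under 4, at 0.21 to 0.36.

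**Figure D4:**
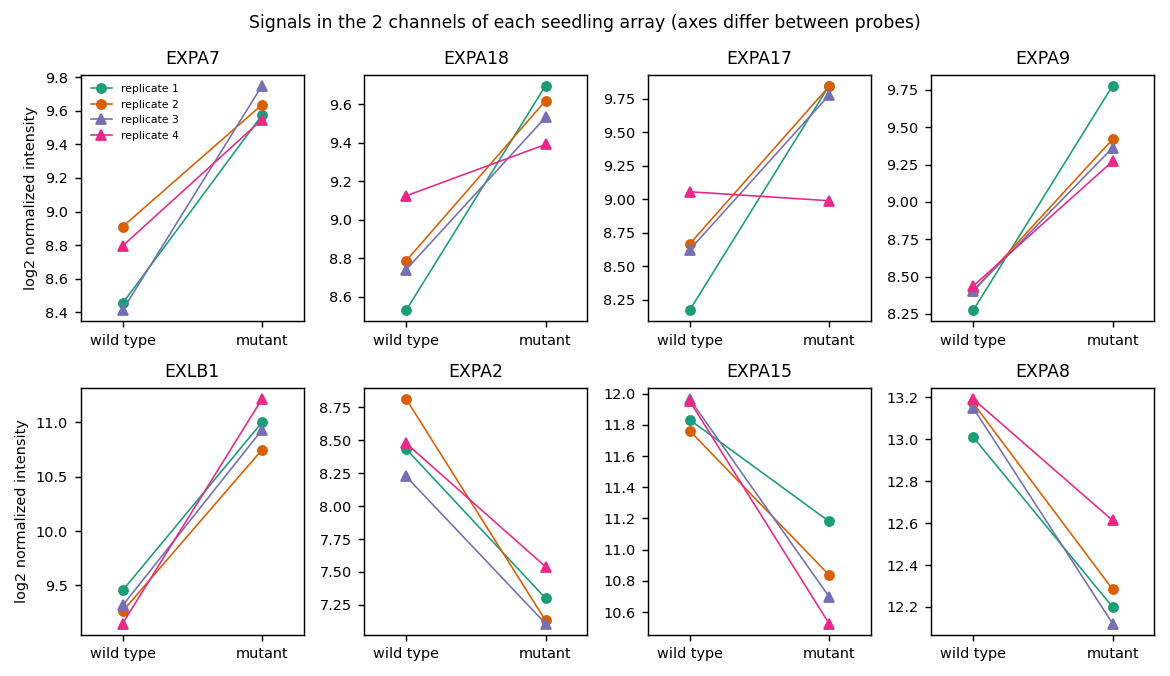
Log2 normalized intensity in the wild-type and mutant channels of each seedling array for 8 expansins, with a line per array (circles: mutant in Cy5, triangles: mutant in Cy3). EXPA7, EXPA18, EXPA9 and EXLB1 are higher in the mutant on all 4 arrays and EXPA2, EXPA15 and EXPA8 lower, while EXPA17 on replicate 4 goes from 9.06 to 8.99. Axes differ between probes.

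The 20 members measured in both tissues allowed a test of whether the mutant response differed between inflorescences and seedlings. It did for 12 of them, 60% beside 31.2% of all loci measured in both. In 9 the seedling ratio was the lower (16.1% of loci), and in EXPA20, EXLA3 and EXLB1 the higher (15.1% of loci). By at least 1.5-fold, 7 of the 20 differed (35%, beside 6.78%). Over all 27 tested members, dim ones included, 17 were called, beside 32.2% of 21446 loci, and 10 by at least 1.5-fold, beside 7.68%. Members measured in a single tissue are among these 27, and their other ratio comes from background, so nothing was drawn from this count.

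Calls of opposite sign in the 2 tissues were made for 4 of these 20 members, beside 3.73% of all loci measured in both. EXPA15 differed most, from 0.46, 0.39, 0.50 and 0.47 in inflorescences to at most −0.65 in seedlings, a seedling minus inflorescence difference of −1.52 ± 0.12 (adjusted p = 2.99e-05). EXPA1 was higher in mutant inflorescences and, at −0.43, −0.46, −0.59 and −0.38, lower in mutant seedlings, a difference of −1.29 ± 0.08 (adjusted p = 4.77e-06). For both genes every inflorescence array was positive and every seedling array negative.

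EXPB3 (AT4G28250) followed the same order with smaller values. It read 0.25, 0.61, 0.35 and 0.66 on the inflorescence arrays but −0.09, −0.10, −0.53 and −0.29 on the seedling arrays, a difference of −0.72 ± 0.12 (adjusted p = 0.00162). EXPA20 (AT4G38210) ran the other way, at −0.44, −0.44, −0.47 and −0.30 in inflorescences and 0.31, 0.41, 0.34 and 0.17 in seedlings, a difference of 0.72 ± 0.07 (adjusted p = 0.000102). The seedling calls of both genes were among those that ended under an alternative, as given above.

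Of the members with a difference of at least 1.5-fold and no opposite calls, EXLB1 differed by 1.496 ± 0.11 (adjusted p = 1.66e-05). Its inflorescence ratios of 0.13, 0.16, 0.07 and 0.37 came from log2 signals of 6.34 to 6.71, close to the dimmest that counted as measured. EXPA10 differed by −0.86 ± 0.12 (adjusted p = 0.000693), with seedling ratios of 0.17, 0.64, 0.24 and 0.51 under the inflorescence range. EXPA8 differed by −0.82 ± 0.11 (adjusted p = 0.000404), with inflorescence ratios of −0.12, 0.18, −0.10 and 0.03.

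Differences under 1.5-fold were called for EXPA3 (−0.53), EXPA5 (−0.39), EXPA6 (−0.28), EXPA11 (−0.36) and EXLA3 (0.38). The EXPA5 call ended with the replicate number as a block (adjusted p = 0.0693) and under 12 alternatives in all, that of EXPA11 under 11 and that of EXLA3 under 6. EXPA6 lost its call without seedling replicate 3 (−0.23, adjusted p = 0.0582). Higher in both tissues were EXPA9, EXPA10, EXPA14, EXPB1 and EXLA2, and lower in both EXPA3, EXPA6 and EXPA13. Calls in both tissues, of either sign, came to 12 of the 20 members, beside 41.2% of all loci measured in both.

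**Figure D5:**
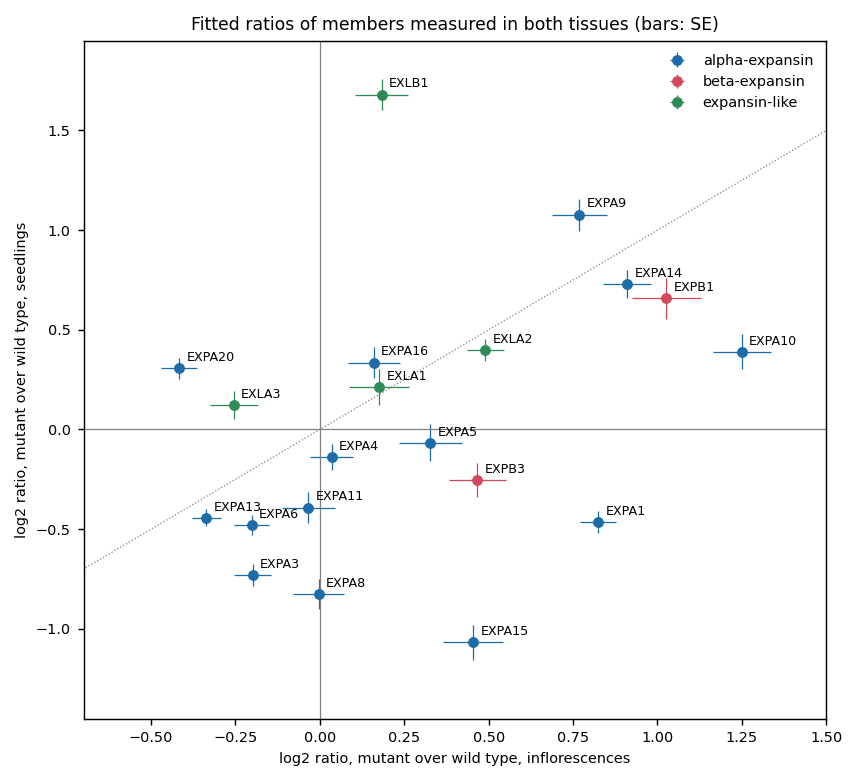
Fitted log2 ratio of mutant over wild type in inflorescences (x axis) and seedlings (y axis) for the 20 expansins measured in both tissues, coloured by class, with SE bars and a dotted line of equal ratios. EXPA1, EXPA15 and EXPB3 lie to the right and below 0, EXPA20 to the left and above 0, and EXLB1 at 1.68 in seedlings.

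By class, alpha-expansins in inflorescences had 7 of 15 measured members higher and 4 lower, with a median of 0.16. In seedlings 9 of 19 were higher and 8 lower, with a median of −0.07. The 9 include EXPA12, which passed the filter through its mutant channels alone and whose call supports nothing. That is 73.3% of alpha-expansins called in inflorescences and 89.5% in seedlings, beside 55.9% and 63.2% of all measured loci. The 3 measured beta-expansins had 2 higher and none lower in inflorescences, and the 2 measured in seedlings went 1 each way. Of the 4 expansin-like genes, 1 rose and 1 fell in inflorescences, and 2 rose and none fell in seedlings. The classes hold too few members to be set against each other, and no test between them was made. At 1.5-fold, the 4 seedling falls were all of alpha-expansins, the class of 19 of the 25 members measured there.

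The summed signal of all measured expansins, in which the brightest probes weigh most, lay between 16.11 and 16.26 in wild-type and between 16.30 and 16.37 in mutant inflorescences on the log2 scale. In seedlings it lay between 16.10 and 16.14 in wild type and between 15.66 and 15.87 in the mutant. The sum was thus higher on the mutant side in inflorescences and lower in seedlings, with no overlap in either. The same sum over all measured loci overlapped in inflorescences. In seedlings it too was lower in the mutant without overlap, by a smaller margin, at 25.906 to 25.967 against 25.969 to 26.041 in wild type.

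The other genes of acid growth were read under the same rule. Of the 11 proton pump genes AHA1 to AHA11, 5 rose and 1 fell in inflorescences, with a median of 0.13, from AHA9 at −0.39 to AHA3 at 0.80 ± 0.10. In seedlings 8 were measured, of which 4 rose and 1 fell. The called pumps came to 54.5% in inflorescences and 62.5% in seedlings, close to the 55.9% and 63.2% of all loci measured there. AHA7 rose by 0.86 ± 0.10 and AHA2, a main pump of roots, fell by 0.27 ± 0.10 (adjusted p = 0.0451). The AHA2 ratios of 0.26, −0.24, −0.41 and −0.69 crossed 0.

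Of 9 clade D phosphatase genes, which encode inhibitors of the pumps, 3 rose and 4 fell in inflorescences and 2 rose and 3 fell in seedlings. That is 77.8% and 55.6% called, beside 55.9% and 63.2% of all loci measured in these tissues. APD7 (AT5G02760) had the lowest seedling value and fell by 1.63 ± 0.05 (adjusted p = 5.60e-08), and AT5G66080 was highest in both tissues, at 0.58 ± 0.05 in inflorescences and 0.37 ± 0.05 in seedlings. All 6 genes of the SAUR19 to SAUR24 group fell in seedlings, by 1.13 to 1.41, with a median of −1.15. In inflorescences 4 of them fell, with a median of −0.21. By share, 100% of this group were called in seedlings and 66.7% in inflorescences. These 6 are near-identical neighbours, and whether their probes tell them apart was not tested. The age gap and the marker values given above hold for these seedling values too.

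Some members neighbour each other in the genome. In the RefSeq table of TAIR10.1, EXPA21, EXPA22, EXPA23, EXPA26, EXPA25 and EXPA24 follow each other as neighbouring protein-coding genes, and EXPA24 was the only member of that cluster measured, in inflorescences. EXPB2 and EXPB6 are also neighbours, and neither gave a value. EXLA3 and EXLA1, neighbours too, had wild-type signals that ran in opposite order, with EXLA3 higher in seedlings (7.65 against 7.03) and EXLA1 higher in inflorescences (10.99 against 10.66).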

How the data were processed

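RNA of paps1-1 and wild type was compared on 8 Agilent arrays, 4 per tissue. The scanner files were written by Feature Extraction 10.7.3.1, per the file headers; for each spot they give the median intensity and that of the local background, without normalization, and a processed intensity. The log10 ratio deposited in those files is red over green processed intensity, and reads exactly 0 on 21% to 27.9% of probes. The deposited value table holds log2 ratios that were already mutant over wild type on every array, as checked against the scanner signals (r of 0.802 to 0.908). The submitters' processing notes list limma; its settings are not stated there.

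Median signals were background corrected (normexp, offset 50) and normalized within arrays (loess) with limma 3.58.1. R was at version 4.3.3 and its data.table package at version 1.17.8. Control and flagged spots had no weight and flagged spots were left out. Single-channel levels were then scaled between arrays (Aquantile). Probes well above background on all 4 arrays of a genotype and tissue, with values on at least 6 arrays, were kept, and the brightest stood for its locus. All 8 arrays were fitted together with a coefficient per tissue and a dye term (5 residual degrees of freedom, 4.86 added by moderation), and p-values were adjusted (Benjamini-Hochberg) over 21446 loci. The fit was tested on simulated data. No spot was saturated, and 56.3% to 62.0% of probes were well above background. The number of arrays limits the precision.

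Named in full are EXPA7, EXPA18 and each member that changed, or differed between tissues, at least 1.5-fold; of other gene lists, the highest, the lowest and a known regulator or pump. Members and lists were chosen with earlier results of these data known. Alternatives covered background correction, normalization, source of the ratio, filter, probe choice, dye term, samples in the fit, a replicate block and leaving out each array. Ratios with the same replicate number in the 2 tissues deviated together from the tissue means (r of 0.119 to 0.32), but the numbers also carry the dye order, and with the dye mean removed r lay between −0.00263 and 0.034. The files name no genome build, so no positions are given.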

Additional observations from a re-analysis of the deposited data

Results flagged for a closer look

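On single arrays, EXPA4 stood at 0.15 on inflorescence replicate 1, beside −0.01 to 0.01 on the other 3, and EXLA3 at 0.27 on seedling replicate 1, beside 0.06 to 0.08. Both gaps exceed Dixon's critical value for 4 values. Of 47 groups of arrays tested these were picked, where chance picks about 1 in 20. Neither gene was called in the tissue of that array.

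The mutant response differed between the tissues in 12 members measured in both. Seedling minus inflorescence log2 ratios were −1.29 for EXPA1 (limma adjusted p = 4.77e-06), −0.53 for EXPA3 (0.000783), −0.39 for EXPA5 (0.0436), −0.28 for EXPA6 (0.0154), −0.82 for EXPA8 (0.000404) and −0.86 for EXPA10 (0.000693). They were −0.36 for EXPA11 (0.0321), −1.52 for EXPA15 (2.99e-05), 0.72 for EXPA20 (0.000102) and −0.72 for EXPB3 (0.00162). For the expansin-like genes they were 0.38 for EXLA3 (0.0179) and 1.496 for EXLB1 (1.66e-05). Tissue, slide, plant age and growth on soil or MS plates go together in each of these differences and cannot be told apart. The age gap between genotypes in seedlings goes with them too.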

How the results depend on the processing

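Median centring ended 12 of 53 calls made on members, more than any other alternative, left 10 called differences between tissues (2 higher, 8 lower) in place of 17 (6 and 11), and put the EXPA18 seedling ratio at 0.58. Over all loci it made 39.0% of inflorescence calls and 32.4% of seedling calls higher, in place of 48.7% and 49.4%. Normexp offset 0 gave 0.87 for EXPA18 in seedlings, no longer called, with an SE of 1.37 pooled over both tissues. The strict filter kept 19 members, 7 of them called at 1.5-fold in seedlings in place of 11. No call changed sign under any of the 19 alternatives. Leaving out an array ended 1 to 6 calls. Without seedling replicate 3 the called differences came to 12, the seedling ratio of EXPB3 to −0.16. EXPA5, EXPA11 and EXLA3 lost their difference between tissues under 12, 11 and 6 alternatives, EXPA5 also with the replicate block (−0.39, adjusted p = 0.0693); the block ended no other call. Without the offset, with the deposited table or with the software's log ratio, ratios of several dim probes grew, and the software's log ratio raised the 1.5-fold counts from 5 to 7 in inflorescences, from 11 to 14 in seedlings and from 10 to 14 in the difference. EXLA3 moved in inflorescences from −0.25 to between −0.58 and −0.42, EXPA12 in seedlings from 0.39 to between 1.01 and 2.35, and EXPA2 there from −1.22 to between −2.13 and −1.76. Calls gained under an alternative were those of EXLB1 (7 alternatives) and EXLA1 (2) in inflorescences, and of EXPA4 (5) and EXLA1 (4) in seedlings. Gained differences were those of EXPA18 (4), EXPB1 (3), EXPA4 (2), EXPA9 (2) and EXPA16 (1). Except where members measured in both tissues are named, the differences counted here include dim members such as EXPA18, from which none was drawn. The causes were not tested. Counting only members measured in both tissues (12 of 20 called), and leaving EXPA12 out of the seedling count (20 of 24 called), were chosen after seeing the data. Slide as a block could not be fitted for the difference, since slide and tissue coincide.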

Other observations

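Dye order moved with the seedling ratios of 15 of 25 measured members, 11 higher with the mutant in Cy5 and 4 higher with it in Cy3, in the sense that the arrays of both orders did not overlap (50% of all loci measured in seedlings). The widest gap was that of EXPA17, with means of 1.42 (mutant in Cy5) and 0.54 (mutant in Cy3). In the same order, EXPA15 averaged −0.79 and −1.35, EXPB1 0.91 and 0.41, EXPA18 1.00 and 0.53, EXPA5 0.17 and −0.30, and EXLA1 −0.01 and 0.44. Each of these is the mean of 2 arrays, and the dye term of the fit covers such shifts only where they are alike in both tissues.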
